A study of Mus musculus with 14 samples.

Results

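The genes described here are the heat shock proteins, chaperones and chaperone partners measured in spleen RNA of AcB61, AcB55 and A/J mice. They are 67 of the 6288 named genes with a value, and all 67 could be tested. They were chosen by symbol alone: single-gene symbols of the array annotation that begin with Hsp, Dnaj, Fkbp or Pfdn, those of Cct or Bag followed by a digit, the cyclophilins Ppia to Ppih, and Tcp1, St13, Stip1 and Ahsa1. The endoplasmic reticulum chaperone Hsp90b1 and the heparan sulphate proteoglycan Hspg2 were set aside. A rule on names also takes in 8 genes whose proteins work in the endoplasmic reticulum and 5 whose proteins work in mitochondria, and these are described as such. Hsp90ab1, Hspa1a, Hspa1b, Ppia, Ppid and Bag6 were not analysed here.

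The series, titled for resistance to malaria, holds 14 cDNA arrays with 2 channels: 8 arrays set spleen RNA of AcB61 mice, and 6 arrays spleen RNA of AcB55 mice, against spleen RNA of A/J mice. Both AcB strains are recombinant congenic: they were bred from A/J with a smaller contribution of C57BL/6 and then inbred, so A/J is their main parental strain and every group shares most of its genome. The labels name no treatment, infection, sex or age. They do not say which arrays share a mouse or a pool of RNA either, so the p-values measure the spread between arrays, part of which may be technical.

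Each value is the log2 ratio of the strain to A/J on one array. A value of 0 means the same signal in both, and a positive value is likely higher in the strain, since the labels name the strain as channel 1 and A/J as channel 2. A ratio holds no level, so one gene's abundance cannot be set against another's. Values are given as the lowest, the median and the highest over the arrays and as mean ± SD, with n = 8 for AcB61 and n = 6 for AcB55 unless stated. Each strain mean was tested against 0 with limma, and the strains were compared as AcB61 minus AcB55. P-values were adjusted by Benjamini-Hochberg over all 13045 tested features, and a gene passed at an adjusted p under 0.05.

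Chaperones bind proteins that are unfolded or partly folded, keep them from clumping, and let them fold or pass them on. HSP70 proteins take up extended chains that J proteins bring to them, exchange factors release the chain again, HSP90 completes the folding of kinases and hormone receptors, and the ring-shaped chaperonin TRiC folds actin and tubulin, which prefoldin delivers. Cells that make much protein, such as the red cell precursors that fill an enlarged mouse spleen, depend on this network, and heat shock factors raise many of its genes when proteins unfold.

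The arrays of AcB61 did not form one even group. Over all features, replicates 2, 6 and 8 correlated with each other at 0.788 to 0.833, and replicates 3, 5 and 7 at 0.704 to 0.795, while arrays taken across these sets correlated at -0.089 to 0.151. Replicates 2, 6 and 8 are called array set A from here on, and replicates 3, 5 and 7 array set B. Replicates 1 and 4 correlated with the arrays of both sets, at 0.365 to 0.638 and 0.368 to 0.612. The arrays of AcB55 correlated with each other at 0.403 to 0.748. The labels do not say what separates the AcB61 arrays, so results for this strain are also given without set A and without set B, an alternative chosen after seeing the data. Because the sets were drawn from these same values, a gene that passed only without a set is described but not shown to differ. Without set A and without set B, 24.7% and 25.3% of all features passed in AcB61, against 23.8% over all arrays. Between the strains 19.5% and 21.3% passed, against 12.3%. Each array gave 14197 to 14588 features with a value, and the number of arrays limits the precision.

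Markers of several cell types also moved with strain. Of 8 measured markers of red cell precursors, 6 were higher in AcB61 and 6 in AcB55 (1 was lower in AcB55). The mean of that list over its genes lay between 0.52 and 0.73 on the AcB61 arrays and between 0.47 and 0.67 on the AcB55 arrays. Of 17 markers of dividing cells, 15 were higher in each strain, with array means of 0.43 to 0.81 in AcB61 and 0.58 to 0.88 in AcB55. Of 6 macrophage markers 2 were lower and 1 higher in AcB61, and 4 lower and 1 higher in AcB55. Of 5 stromal and endothelial markers 3 were lower and 1 higher in AcB61, and all 5 were lower in AcB55. Of 3 granulocyte markers, 2 were higher in AcB61 and 1 in AcB55. The B cell gene Blnk averaged -0.58 ± 0.199 in AcB61 (n = 6) and -1.07 ± 0.298 in AcB55, both past the test. Satb1, the T cell marker measured, did not pass in AcB61 and was lower in AcB55, and of 2 platelet markers both were lower in AcB61 and neither passed in AcB55, also at an unadjusted p under 0.05. The part of these cells in the values below was not tested. In whole spleen, fewer cells of a type and less RNA per cell cannot be told apart.

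In AcB61, 14 of the 67 genes rose and 3 fell against A/J. In AcB55, 10 rose and 10 fell. These are 25.4% of the genes in AcB61, against 23.8% of all tested features, and 29.9% in AcB55, against 20.7% of all features. The median over the 67 genes was 0.077 in AcB61 and 0.042 in AcB55, beside -0.00067 and -0.002 over all features. By direction, 10.5% of all features were higher and 13.3% lower in AcB61, and 9.77% were higher and 10.9% lower in AcB55. Between the strains 4 genes were higher and 2 lower in AcB61 than in AcB55, which is 8.96% against 12.3% of all features (5.29% higher and 6.98% lower). In all, 29 genes passed in at least 1 of these comparisons and 38 in none of them.

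**Figure D1:**
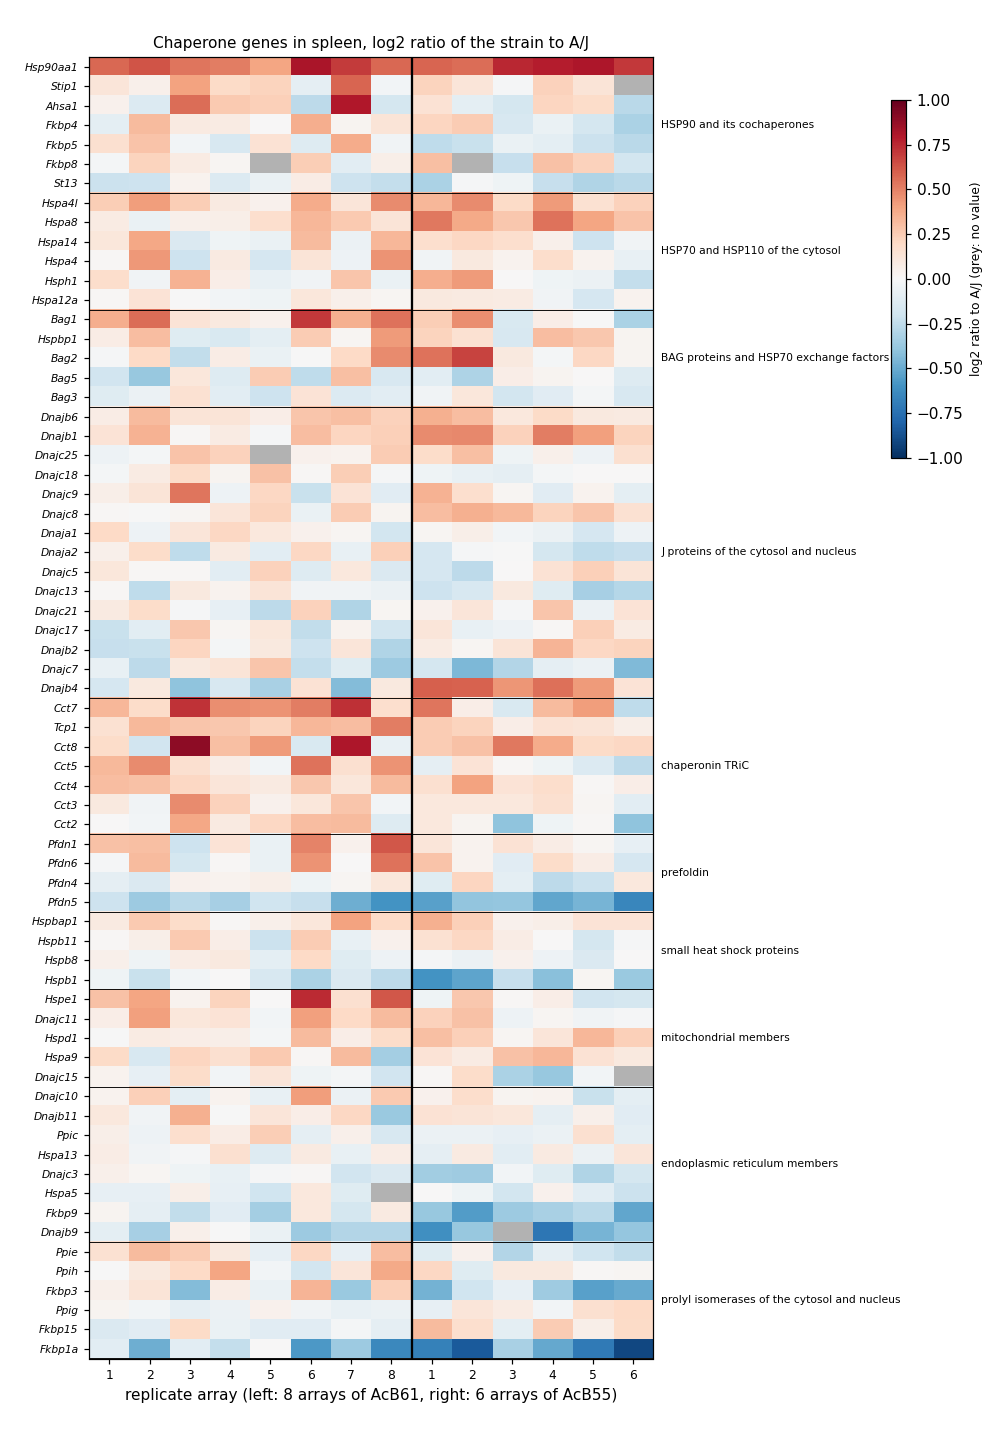
Log2 ratio of the strain to A/J for the 67 genes (rows, grouped by role) on the 8 AcB61 arrays (left) and the 6 AcB55 arrays (right); red is higher in the strain, blue is higher in A/J and grey has no value. The row of Hsp90aa1 is red on all 14 arrays, and that of Pfdn5 is blue on all 14.

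Of the 7 genes of HSP90 and its cochaperones, Hsp90aa1 and Stip1 rose in AcB61, and in AcB55 Hsp90aa1 rose and St13 fell. Hsp90aa1 encodes the stress-inducible cytosolic HSP90. It measured 0.39, 0.57 and 0.82 (lowest, median and highest) in AcB61 and 0.56, 0.73 and 0.81 in AcB55. Every array of both strains was thus above A/J, and the strains overlapped. The means were 0.59 ± 0.127 in AcB61 and 0.70 ± 0.107 in AcB55, or 1.51-fold and 1.62-fold of A/J, with adjusted p-values of 4.31e-07 and 2.02e-07. AcB61 minus AcB55 was -0.11, with a 95% interval of -0.26 to 0.05 (adjusted p = 0.361). The gene was measured by 5 spots of 2 clones, whose means ran from 0.48 to 0.66 in AcB61 and from 0.60 to 0.83 in AcB55. A spotted cDNA can also bind transcripts of close relatives such as Hsp90ab1, so these spots may not see Hsp90aa1 alone. The call was kept without set A and without set B.

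Stip1, a cochaperone, links HSP70 to HSP90 and lets clients pass between them. It measured -0.09, 0.16 and 0.58 in AcB61, with a mean of 0.18 ± 0.225 (adjusted p = 0.0474), and -0.01, 0.13 and 0.23 in AcB55, with a mean of 0.14 ± 0.0987 (n = 5, adjusted p = 0.266). In AcB61 its values were 0.23 to 0.58 in set B and -0.09 to 0.05 in set A. That call was lost when AcB61 replicate 1, 3, 4, 5 or 7 or one of AcB55 replicates 1 to 5 was left out, with adjusted p-values of up to 0.144, and without set B (adjusted p = 0.601). St13, which holds HSP70 in its substrate-bound state, averaged -0.12 ± 0.121 in AcB61 (adjusted p = 0.086) and -0.19 ± 0.134 in AcB55 (adjusted p = 0.0202). The AcB55 call was lost without replicate 1, 4, 5 or 6 of AcB55, at up to 0.0728. It also rests on 1 of its 2 clones: that clone averaged -0.25 in AcB61 (adjusted p = 0.00413) and -0.34 in AcB55 (adjusted p = 0.00115), while the other averaged 0.01 in AcB61 (adjusted p = 0.967) and -0.05 in AcB55 (adjusted p = 0.632).

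Ahsa1, which speeds up the ATPase of HSP90, did not pass in either strain over all arrays. Without set A it passed in AcB61 against A/J and between the strains. Its AcB61 values ran from -0.26 to 0.80, with 0.24 to 0.80 in set B and -0.26 to -0.14 in set A. The mean was 0.17 ± 0.374 (adjusted p = 0.254). In AcB55 its mean was 0.0 ± 0.205 (adjusted p = 0.999). The immunophilins of HSP90 that carry a prolyl isomerase domain did not pass either. Fkbp4 averaged 0.11 ± 0.155 in AcB61 and -0.04 ± 0.23 in AcB55. Fkbp5 averaged 0.08 ± 0.194 and -0.19 ± 0.0829, with adjusted p-values of 0.389 in AcB61 and 0.0516 in AcB55. All 6 AcB55 arrays of Fkbp5 were below 0, and AcB61 minus AcB55 was 0.26, with a 95% interval of 0.08 to 0.44 (adjusted p = 0.0556). Fkbp8 did not pass in any comparison.

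**Figure D2:**
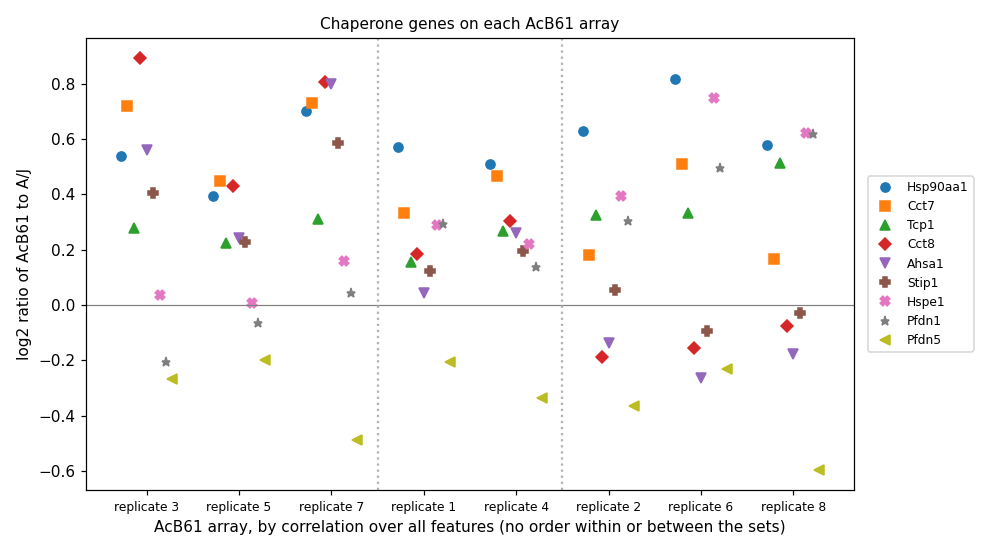
Log2 ratio of AcB61 to A/J (vertical axis) for 9 genes on each of the 8 AcB61 arrays; dotted lines separate set B (replicates 3, 5 and 7), replicates 1 and 4, and set A (replicates 2, 6 and 8). Hsp90aa1, Cct7 and Tcp1 lie above 0 and Pfdn5 below 0 on every array, while Cct8 and Ahsa1 are above 0 in set B and below 0 in set A.

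Among the 6 cytosolic HSP70 and HSP110 genes, Hspa4l rose in both strains and Hspa8 in AcB55. Hspa8 encodes the constitutive HSP70, which also strips clathrin from vesicles. It measured -0.07, 0.10 and 0.33 in AcB61 and 0.27, 0.39 and 0.55 in AcB55. The ranges overlapped at their edges, with the highest AcB61 array above the lowest AcB55 array. The means were 0.13 ± 0.126 in AcB61 (adjusted p = 0.0694) and 0.40 ± 0.117 in AcB55 (adjusted p = 5.4e-05), which is 1.32-fold of A/J in AcB55. AcB61 minus AcB55 was -0.28, with a 95% interval of -0.43 to -0.12 (adjusted p = 0.0234). This difference was lost without AcB55 replicate 4 (adjusted p = 0.0612), and kept without set A and without set B. Taken one by one, neither of its 2 clones passed between the strains (-0.23, adjusted p = 0.268, and -0.32, adjusted p = 0.0957), while both passed in AcB55 against A/J.

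Hspa4l, an HSP110 protein that exchanges nucleotide on HSP70, measured 0.04, 0.24 and 0.47 in AcB61 and 0.15, 0.28 and 0.47 in AcB55. All 14 arrays were above 0 and the strains overlapped over most of their range. The means were 0.25 ± 0.159 in AcB61 (adjusted p = 0.00263) and 0.30 ± 0.132 in AcB55 (adjusted p = 0.00187). In AcB61 the values were 0.37 to 0.47 in set A and 0.04 to 0.24 in set B, and the call was lost without set A (adjusted p = 0.0779). Its relatives Hspa4 and Hsph1 did not pass: Hspa4 averaged 0.09 ± 0.248 in AcB61 and 0.04 ± 0.0896 in AcB55, and Hsph1 0.08 ± 0.166 in AcB61 and 0.07 ± 0.263 in AcB55. Hspa14, which works at the ribosome, and Hspa12a did not pass in any comparison over all arrays. Without set B, Hspa4 and Hspa14 passed in AcB61 against A/J.

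Of the 5 BAG proteins and other exchange factors of HSP70, Bag1 alone passed, in AcB61. Bag1, which couples HSP70 to the proteasome, measured 0.04, 0.36 and 0.71 in AcB61 and -0.32, 0.03 and 0.47 in AcB55. All 8 AcB61 arrays were above 0, while the AcB55 arrays lay on both sides of it. The means were 0.35 ± 0.242 in AcB61 (adjusted p = 0.00446) and 0.05 ± 0.279 in AcB55 (adjusted p = 0.785). In set A the gene measured 0.54 to 0.71, and the call was lost without set A (adjusted p = 0.114). AcB61 minus AcB55 was 0.30 (adjusted p = 0.126). In AcB55, Bag2 came closest to passing, with a mean of 0.26 ± 0.288 (adjusted p = 0.0552) against 0.08 ± 0.215 in AcB61. Bag3, which with HSP70 sends damaged proteins to autophagy and is strongly stress-inducible, averaged -0.06 ± 0.13 in AcB61 and -0.07 ± 0.109 in AcB55. Bag5 and Hspbp1 passed in no comparison over all arrays. Without set B, Bag5 passed as lower in AcB61 than in A/J, with -0.38 to -0.16 in set A.

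The 15 J proteins of the cytosol and nucleus gave 2 genes that rose in AcB61, and 4 that rose and 2 that fell in AcB55. Dnajb1, the main partner of stress-inducible HSP70, measured -0.01, 0.18 and 0.34 in AcB61 and 0.22, 0.44 and 0.51 in AcB55. The AcB55 arrays were all above 0, and the strains overlapped. The means were 0.17 ± 0.133 in AcB61 (adjusted p = 0.0229) and 0.39 ± 0.129 in AcB55 (adjusted p = 0.000103), and AcB61 minus AcB55 was -0.22 (adjusted p = 0.0666). The AcB61 call was lost when replicate 2, 6 or 8 of that strain was left out, at up to 0.0696, and without all 3 of them (adjusted p = 0.315).

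Dnajb4, a cytosolic J protein related to Dnajb1, differed most between the strains of the 67 genes. It measured -0.44, -0.16 and 0.15 in AcB61 and 0.14, 0.50 and 0.60 in AcB55. Only the lowest AcB55 array, replicate 6 at 0.14, fell within the range of AcB61. The means were -0.14 ± 0.235 in AcB61 (adjusted p = 0.16) and 0.46 ± 0.173 in AcB55 (adjusted p = 0.00043). AcB61 minus AcB55 was -0.60, with a 95% interval of -0.82 to -0.38 (adjusted p = 0.00232), or 1.52-fold more in AcB55. This was the one difference between the strains that passed under all 25 alternatives that give it. Within AcB61 the gene measured -0.44 to -0.32 in set B and 0.10 to 0.15 in set A. Without set A it passed as lower in AcB61 than in A/J.

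Dnajb6 suppresses the aggregation of polyglutamine proteins. It measured 0.07, 0.18 and 0.31 in AcB61 and 0.09, 0.15 and 0.35 in AcB55. Every array was above A/J, and the strains overlapped. The means were 0.19 ± 0.101 in AcB61 (adjusted p = 0.00535) and 0.19 ± 0.116 in AcB55 (adjusted p = 0.014). The AcB55 call was lost without replicate 1 or 2 of AcB55, at up to 0.0613, and the AcB61 call without set A (adjusted p = 0.0883). Of its 2 clones, 1 passed in AcB61 (0.19, adjusted p = 0.0465) and the other did not (0.19, adjusted p = 0.0729), while in AcB55 the order was turned, at 0.13 (adjusted p = 0.274) and 0.25 (adjusted p = 0.0408). Dnajb6 is 1 of 4 of these genes whose promoter window holds the motif described with Hspe1.

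Dnajc8, a nuclear J protein tied to splicing, measured -0.07, 0.02 and 0.26 in AcB61 and 0.15, 0.29 and 0.36 in AcB55. It averaged 0.07 ± 0.115 in AcB61 (adjusted p = 0.265) and 0.27 ± 0.0735 in AcB55 (adjusted p = 0.000738), and AcB61 minus AcB55 was -0.20 (adjusted p = 0.0608). Dnajc7, which binds both HSP70 and HSP90, averaged -0.07 ± 0.221 in AcB61 and -0.25 ± 0.169 in AcB55 (adjusted p = 0.0261 in AcB55). Its AcB55 arrays were all below 0, but the call was lost without replicate 2, 3 or 6, at up to 0.103. Dnajc13, which acts on endosomes, averaged -0.01 ± 0.116 in AcB61 and -0.17 ± 0.152 in AcB55. Its AcB55 adjusted p of 0.0497 was lost without any AcB55 array but replicate 3 and without AcB61 replicate 1, 3, 4, 6, 7 or 8, at up to 0.172. Of its 2 clones, 1 passed in AcB55 (-0.26, adjusted p = 0.00788) and the other did not (-0.08, adjusted p = 0.586).

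Dnajb2 was the one gene whose clones were called in opposite directions within a comparison. In AcB61 its clones averaged 0.17 (adjusted p = 0.0391) and -0.31 (adjusted p = 0.00651), and in AcB55 0.18 and 0.15, so the gene's own mean of -0.07 in AcB61 stands for neither clone. The clone at -0.31 also passed as AcB61 minus AcB55 (-0.45, adjusted p = 0.0171), and the other did not (-0.01, adjusted p = 0.945). Dnaja1, the farnesylated partner of HSP70, averaged 0.06 ± 0.132 in AcB61 (adjusted p = 0.429) and -0.04 ± 0.0779 in AcB55 (adjusted p = 0.714). Of its 2 clones, 1 passed in AcB61 (0.18, adjusted p = 0.0221) and the other did not (-0.06, adjusted p = 0.557). The means of Dnaja2, Dnajc5, Dnajc9, Dnajc17, Dnajc18, Dnajc21 and Dnajc25 did not pass in any comparison. Of the 2 clones of Dnaja2, 1 passed in AcB55 (-0.26, adjusted p = 0.0201) and the other did not (-0.02, adjusted p = 0.896). Likewise 1 of the 2 clones of Dnajc21 passed in AcB55 (0.23, adjusted p = 0.0373), and the other did not (-0.06, adjusted p = 0.743).

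**Figure D3:**
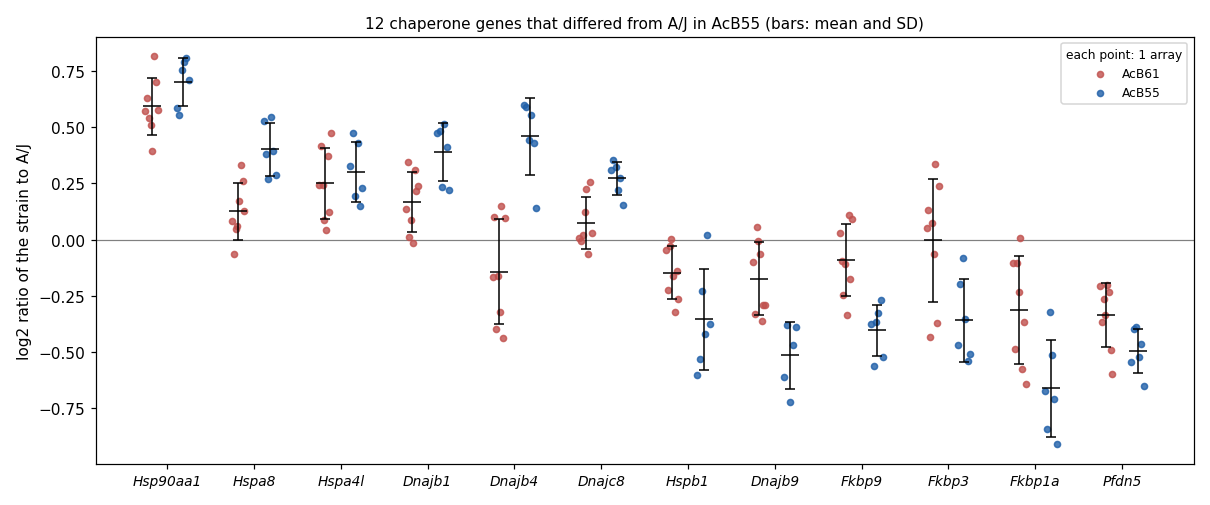
Log2 ratio of the strain to A/J (vertical axis) for the 12 genes that passed in AcB55 under all alternatives; each point is 1 array of AcB61 (left of each pair) or AcB55 (right), and bars give the mean and SD. Dnajb4 lies mostly below 0 in AcB61 and above 0 in AcB55, and the points of Dnajb9 do not overlap between the strains.

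The 7 measured subunits of TRiC all had positive means in AcB61. Of these 4 passed as higher, and all 7 had an unadjusted p under 0.05, as did 4467 of the 13045 features. In AcB55 2 passed, and 5 means were positive. The median of the subunit means was 0.27 in AcB61 and 0.15 in AcB55. Tcp1, the first subunit, measured 0.16, 0.29 and 0.51 in AcB61 and 0.06, 0.14 and 0.26 in AcB55. Every array of both strains was above A/J. Its means were 0.30 ± 0.103 in AcB61 (adjusted p = 8.22e-05) and 0.15 ± 0.0808 in AcB55 (adjusted p = 0.0442), and AcB61 minus AcB55 was 0.15 (adjusted p = 0.134). The AcB55 call did not hold without AcB55 replicate 1, 2, 4, 5 or 6 or AcB61 replicate 2, 3, 4, 6 or 7, at up to 0.135, and neither of its 2 clones passed in AcB55 by itself (0.11, adjusted p = 0.379, and 0.18, adjusted p = 0.167).

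Cct7 had the largest mean of the subunits in AcB61. It measured 0.17, 0.46 and 0.73 in AcB61 and -0.25, 0.19 and 0.53 in AcB55. All AcB61 arrays were above 0, while the AcB55 arrays spread on both sides of it. The means were 0.44 ± 0.214 in AcB61 (adjusted p = 0.000846), or 1.36-fold of A/J, and 0.16 ± 0.317 in AcB55 (adjusted p = 0.298), with a difference of 0.29 (adjusted p = 0.146). Cct4 measured 0.09, 0.24 and 0.32 in AcB61 and 0.01, 0.15 and 0.40 in AcB55. Its means were 0.22 ± 0.0949 in AcB61 (adjusted p = 0.00258) and 0.16 ± 0.133 in AcB55 (adjusted p = 0.0435). The AcB55 call was lost without AcB55 replicate 1, 2, 3, 4 or 6 or AcB61 replicate 1 or 4, at up to 0.173. The 2 clones of Cct4 averaged 0.13 (adjusted p = 0.12) and 0.30 (adjusted p = 0.00148) in AcB61, and 0.12 (adjusted p = 0.242) and 0.20 (adjusted p = 0.0507) in AcB55, so its AcB61 call was made by 1 clone alone and its AcB55 call by neither. Tcp1, Cct7 and Cct4 kept their AcB61 calls without set A and without set B, and both clones of Tcp1 and all 3 spots of Cct7 passed in AcB61.

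Cct5 was the subunit that differed between the strains. It measured -0.03, 0.24 and 0.54 in AcB61 and -0.26, -0.07 and 0.14 in AcB55. The means were 0.27 ± 0.207 in AcB61 (adjusted p = 0.00405) and -0.06 ± 0.135 in AcB55 (adjusted p = 0.623). AcB61 minus AcB55 was 0.33, with a 95% interval of 0.13 to 0.53 (adjusted p = 0.0299). This difference was lost without AcB55 replicate 4, 5 or 6 or AcB61 replicate 1 or 2, at up to 0.0845. In set A Cct5 measured 0.45 to 0.54, and without these 3 arrays its call against A/J was lost (adjusted p = 0.124).

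The other subunits did not pass. Cct8 measured -0.19, 0.24 and 0.89 in AcB61 and 0.19, 0.27 and 0.53 in AcB55, with means of 0.27 ± 0.417 (adjusted p = 0.0571) and 0.31 ± 0.126 (adjusted p = 0.0729). All AcB55 arrays were above 0, and in AcB61 the values were 0.43 to 0.89 in set B and -0.19 to -0.08 in set A. Cct8 and Cct3 passed in AcB61 without set A. Cct3 averaged 0.15 ± 0.172 in AcB61 (adjusted p = 0.0566) and 0.07 ± 0.095 in AcB55 (adjusted p = 0.533). Of its 4 spots of 1 clone, 1 passed in AcB61 (0.22, adjusted p = 0.014) and the others did not. Cct2 averaged 0.15 ± 0.187 in AcB61 (adjusted p = 0.138) and -0.12 ± 0.226 in AcB55 (adjusted p = 0.345).

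**Figure D4:**
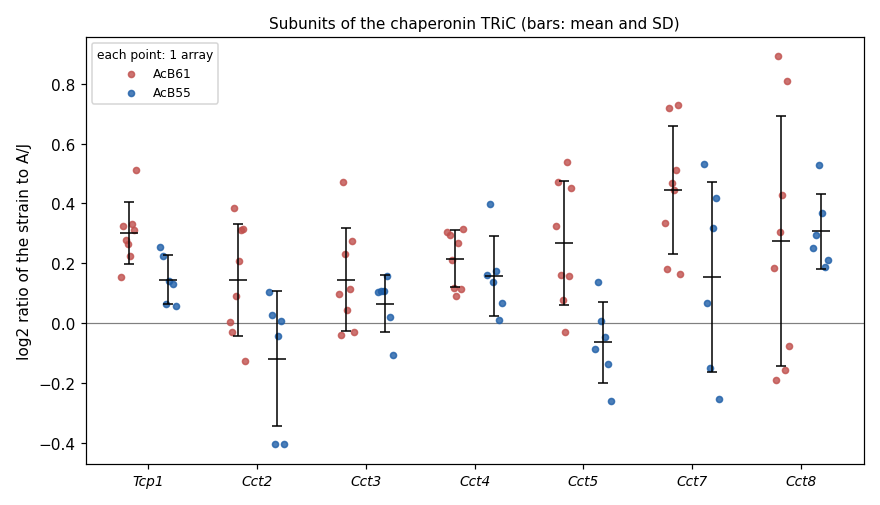
Log2 ratio of the strain to A/J (vertical axis) for the 7 measured TRiC subunits; each point is 1 array of AcB61 (left of each pair) or AcB55 (right), and bars give the mean and SD. The AcB61 means run from 0.15 to 0.44, and the AcB61 points of Cct8 spread from -0.19 to 0.89.

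Of the 4 prefoldin subunits, Pfdn5 fell in both strains. Pfdn5 is also known as MM-1, a protein that binds Myc. It measured -0.60, -0.30 and -0.20 in AcB61 and -0.65, -0.49 and -0.39 in AcB55. All 14 arrays were below A/J, and the strains overlapped. The means were -0.34 ± 0.143 in AcB61 (adjusted p = 0.000109) and -0.49 ± 0.0993 in AcB55 (adjusted p = 8.52e-06), and AcB61 minus AcB55 was 0.16 (adjusted p = 0.18). Both calls held under all alternatives. Pfdn1 ran the other way in AcB61, where it measured -0.20, 0.21 and 0.62 and averaged 0.20 ± 0.279 (adjusted p = 0.0489), against 0.05 ± 0.0804 in AcB55 (adjusted p = 0.748). Its AcB61 values were 0.30 to 0.62 in set A and -0.20 to 0.04 in set B. The call was lost without any one AcB55 array and without AcB61 replicate 1, 2, 4, 6 or 8, at up to 0.154, and without set A (adjusted p = 0.704). Pfdn6 split likewise within AcB61, at 0.32 to 0.54 in set A and -0.17 to 0.0 in set B. It did not pass over all AcB61 arrays (mean 0.13 ± 0.264, adjusted p = 0.228), and passed without set B. Pfdn4 did not pass in any comparison.

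Among the 4 genes with small heat shock protein names, Hspb1 fell in AcB55. Hspb1 is a stress-inducible holdase that keeps unfolded proteins soluble and binds actin. It measured -0.32, -0.15 and 0.0 in AcB61 and -0.60, -0.40 and 0.02 in AcB55. The means were -0.15 ± 0.117 in AcB61 (adjusted p = 0.084) and -0.35 ± 0.225 in AcB55 (adjusted p = 0.00105), and AcB61 minus AcB55 was 0.21 (adjusted p = 0.146). All but 1 array of AcB55 were below A/J. Hspbap1, named for binding a small heat shock protein, averaged 0.16 ± 0.127 in AcB61 (adjusted p = 0.0201) and 0.16 ± 0.118 in AcB55 (adjusted p = 0.0508). The AcB61 call was lost without AcB61 replicate 2 or 7, at up to 0.0656, and without set A (adjusted p = 0.104) or set B (adjusted p = 0.0998). Its 2 clones averaged 0.15 (adjusted p = 0.0628) and 0.17 (adjusted p = 0.0166) in AcB61, and 0.09 (adjusted p = 0.382) and 0.23 (adjusted p = 0.00735) in AcB55. Hspb8, the partner of Bag3, and Hspb11, a part of the intraflagellar transport machinery, did not pass in any comparison.

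Of the genes of the mitochondrial chaperonin, Hspe1 passed in AcB61 and Hspd1 in AcB55. Hspd1 encodes the HSP60 ring and Hspe1 the HSP10 lid that closes it, and the genes lie head to head on chromosome 1 and share the stretch between their starts. Hspe1 measured 0.01, 0.25 and 0.75 in AcB61 and -0.19, -0.02 and 0.27 in AcB55. It averaged 0.31 ± 0.266 in AcB61 (adjusted p = 0.00564) and -0.01 ± 0.171 in AcB55 (adjusted p = 0.962), and AcB61 minus AcB55 was 0.32 (adjusted p = 0.075). Hspd1 measured -0.02, 0.06 and 0.32 in AcB61 and 0.02, 0.24 and 0.33 in AcB55. It averaged 0.09 ± 0.11 in AcB61 (adjusted p = 0.169) and 0.21 ± 0.118 in AcB55 (adjusted p = 0.00904), and AcB61 minus AcB55 was -0.11 (adjusted p = 0.315). Neither gene was shown to differ between the strains by its mean. Hspd1 was measured by 3 spots of 1 clone, of which 1 passed in AcB61 (0.15, adjusted p = 0.0447) and another in AcB55 (0.27, adjusted p = 0.00289). The spot that passed in AcB55 also passed as AcB61 minus AcB55 (-0.27, adjusted p = 0.0388). The other spots did not (-0.02, adjusted p = 0.919, and -0.06, adjusted p = 0.75). In set A Hspe1 measured 0.39 to 0.75, and its call was lost without them (adjusted p = 0.14).

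The promoter of this pair is shown because it carries a strong form of the heat shock element, the DNA motif that heat shock factors bind. The motif searched was GAANNTTCNNGAA or its reverse complement TTCNNGAANNTTC, so both strands were covered and overlapping matches were counted. It was looked for in the RefSeq windows of build GRCm38.p6 that run from 250 bases before to 50 bases after each gene start. Of 55 of the 67 genes with a window, 4 held a match (7.27%), against 179 of all 27025 genes (0.662%) and 198 of all 32851 windows (0.603%). They are Hspd1, Hspe1, Dnajb6 and Hsph1. Capitals mark the matched bases in the windows of Hspe1 (chr1:55087898-55088197, plus strand) and Dnajb6 (chr5:29735648-29735947, plus strand), 5′ to 3′.
Hspe1: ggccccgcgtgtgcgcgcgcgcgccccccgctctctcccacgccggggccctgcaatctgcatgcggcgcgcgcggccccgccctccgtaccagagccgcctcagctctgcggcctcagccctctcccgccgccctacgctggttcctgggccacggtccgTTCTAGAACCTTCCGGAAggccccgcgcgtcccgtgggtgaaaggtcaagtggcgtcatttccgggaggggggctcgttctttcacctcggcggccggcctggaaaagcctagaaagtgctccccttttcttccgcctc
Dnajb6: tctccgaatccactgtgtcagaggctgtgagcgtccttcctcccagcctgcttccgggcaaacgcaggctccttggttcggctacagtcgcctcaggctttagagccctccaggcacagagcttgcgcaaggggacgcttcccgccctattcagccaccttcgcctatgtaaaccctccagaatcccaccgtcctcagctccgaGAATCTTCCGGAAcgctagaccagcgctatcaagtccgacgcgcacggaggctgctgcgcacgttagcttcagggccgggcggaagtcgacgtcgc

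In Hspe1 there are 2 overlapping matches that cover 18 bases, chr1:55088059-55088076, at positions -89 to -72 from the start. The window of Hspd1 reads the same 18 bases on the other strand, at positions -144 to -127 from its own start. The match of Dnajb6 covers 13 bases, chr5:29735852-29735864, at positions -46 to -34 from the start. A further window of Dnajb6 puts the same bases at -127 to -115. The match of Hsph1 lies after the start, at positions 37 to 49, or 16 to 28 in a further window. Of the genes with a match, Dnajb6 passed in both strains, Hspe1 in AcB61, Hspd1 in AcB55 and Hsph1 in neither. Of all features, 23.8% passed in AcB61 and 20.7% in AcB55. Whether genes with a match passed more often was not tested, nor were differences between these genes. A match describes letters in a window and shows no binding, and windows without one may hold weaker or more distant elements. Heat shock factors themselves were not analysed here.

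Of the other mitochondrial members, Dnajc11, a J protein tied to the inner membrane's cristae, rose in AcB61. It averaged 0.20 ± 0.162 in AcB61 (adjusted p = 0.0128) and 0.07 ± 0.148 in AcB55 (adjusted p = 0.49), with 0.32 to 0.41 in set A, without which the call was lost (adjusted p = 0.269). The mitochondrial HSP70 gene Hspa9 averaged 0.08 ± 0.229 in AcB61 and 0.18 ± 0.107 in AcB55 (adjusted p = 0.421 and 0.0995). Without set A it passed in AcB61. Dnajc15 did not pass in any comparison.

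Among the 8 members of the endoplasmic reticulum, Dnajb9 fell in both strains and Dnajc3 and Fkbp9 in AcB55. Dnajb9, a J protein that brings unfolded chains to the HSP70 protein BiP and is raised by the unfolded protein response, measured -0.36, -0.20 and 0.05 in AcB61 and -0.72, -0.47 and -0.38 in AcB55 (n = 5). The lowest AcB61 array was above the highest AcB55 array. It was the only 1 of the 67 genes whose strains did not overlap, against 2.67% of all features. The means were -0.17 ± 0.163 in AcB61 (adjusted p = 0.0331) and -0.51 ± 0.149 in AcB55 (adjusted p = 6.48e-05), and AcB61 minus AcB55 was 0.34, with a 95% interval of 0.15 to 0.53 (adjusted p = 0.0243). The difference was lost without AcB55 replicate 4 (adjusted p = 0.0725), and the AcB61 call without AcB61 replicate 2, 6, 7 or 8, at up to 0.088, and without set A (adjusted p = 0.4).

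Fkbp9, a prolyl isomerase of the endoplasmic reticulum, measured -0.34, -0.10 and 0.11 in AcB61 and -0.56, -0.37 and -0.27 in AcB55. All AcB55 arrays were below A/J. The means were -0.09 ± 0.16 in AcB61 (adjusted p = 0.249) and -0.40 ± 0.114 in AcB55 (adjusted p = 0.000118), and AcB61 minus AcB55 was 0.31, with a 95% interval of 0.14 to 0.48 (adjusted p = 0.0198). The difference was lost without AcB55 replicate 6 (adjusted p = 0.0551). Dnajc3, also called p58IPK, an inhibitor of the kinase PERK and a cochaperone of BiP, averaged -0.05 ± 0.0844 in AcB61 (adjusted p = 0.515) and -0.22 ± 0.135 in AcB55 (adjusted p = 0.00544). Of its 2 clones, 1 passed in AcB55 (-0.25, adjusted p = 0.00165) and the other did not (-0.17, adjusted p = 0.236). The clone that passed in AcB55 also passed as AcB61 minus AcB55 (0.24, adjusted p = 0.0311), unlike the other (0.08, adjusted p = 0.697). Hspa5, which encodes BiP, averaged -0.06 ± 0.106 in AcB61 (n = 7, adjusted p = 0.45) and -0.08 ± 0.103 in AcB55 (adjusted p = 0.312). Hspa13, Dnajb11, Dnajc10 and Ppic did not pass in any comparison over all arrays, and Dnajc10 passed in AcB61 without set B.

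Of the 6 other prolyl isomerases, which turn the bond before proline, Fkbp1a fell in both strains and Fkbp3 in AcB55. Fkbp1a encodes FKBP12, which binds FK506 and rapamycin and sits on the ryanodine receptor. It measured -0.64, -0.30 and 0.01 in AcB61 and -0.91, -0.69 and -0.32 in AcB55. All AcB55 arrays were below A/J, and the strains overlapped. The means were -0.31 ± 0.241 in AcB61 (adjusted p = 0.00516) and -0.66 ± 0.217 in AcB55 (adjusted p = 2.82e-05), with a difference of 0.35 (adjusted p = 0.0552). A/J had 1.24 times the AcB61 signal and 1.58 times that of AcB55. In AcB61 the values were -0.64 to -0.49 in set A, without which that call was lost (adjusted p = 0.144).

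Fkbp3, a nuclear prolyl isomerase, measured -0.43, 0.06 and 0.34 in AcB61 and -0.54, -0.41 and -0.08 in AcB55. Its means were 0.0 ± 0.274 in AcB61 (adjusted p = 0.98) and -0.36 ± 0.183 in AcB55 (adjusted p = 0.00695). Ppie, a cyclophilin of the spliceosome, passed against A/J in neither strain but differed between them. It averaged 0.15 ± 0.158 in AcB61 (adjusted p = 0.0549) and -0.15 ± 0.122 in AcB55 (adjusted p = 0.0909), and AcB61 minus AcB55 was 0.30, with a 95% interval of 0.13 to 0.47 (adjusted p = 0.0243). That difference was lost without AcB55 replicate 3, 5 or 6, at up to 0.0637. Ppih, Fkbp15 and the mean of Ppig did not pass in any comparison. Ppig was measured by 5 clones, whose means ran from -0.22 to 0.05 in AcB61 and from -0.105 to 0.31 in AcB55. Clones at 0.31 (adjusted p = 0.00153) and 0.21 (adjusted p = 0.0163) passed in AcB55. A different clone passed in AcB61 (-0.22, adjusted p = 0.0218), and the rest passed in neither.

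The genes that differed between the strains were Cct5, Dnajb9, Fkbp9 and Ppie, higher in AcB61, and Dnajb4 and Hspa8, lower in AcB61. Without set A and without set B Dnajb4, Dnajb9 and Hspa8 kept their calls. Those of Cct5 (adjusted p = 0.109), Fkbp9 (adjusted p = 0.0564) and Ppie (adjusted p = 0.0802) were lost without set A and kept without set B. The count of 6 depended on single arrays: it was 3 without AcB55 replicate 4 or replicate 6, and 10 without AcB61 replicate 3. The share of all features that passed between the strains moved as well, from 12.3% over all arrays. It was 8.205% without AcB55 replicate 4, 6.548% without AcB55 replicate 6 and 12.99% without AcB61 replicate 3.

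**Figure D5:**
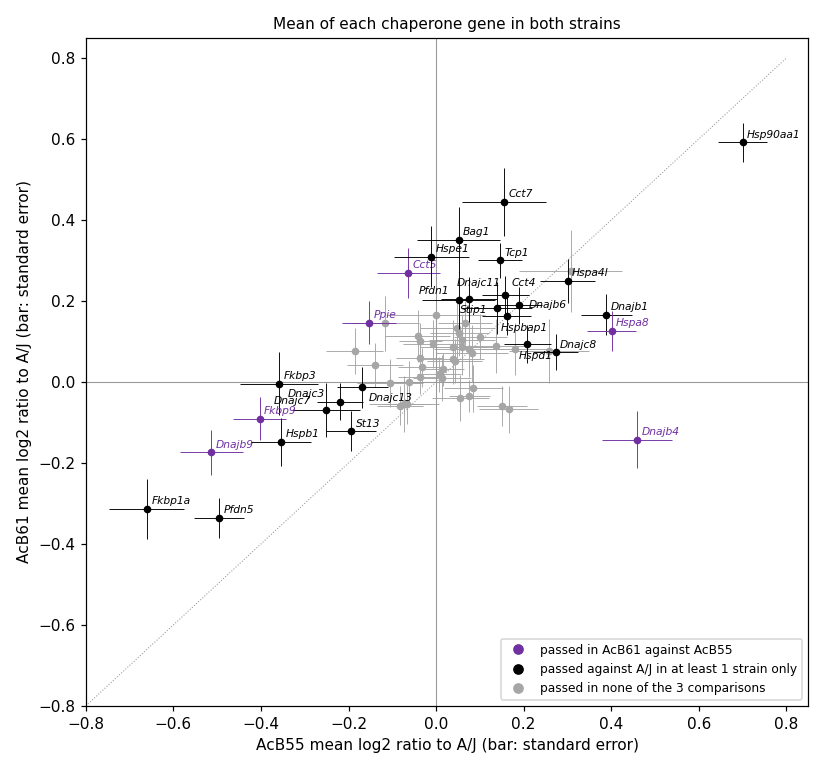
Mean log2 ratio to A/J of each of the 67 genes in AcB61 (vertical axis) against AcB55 (horizontal axis), with standard errors of the fit as bars and a dotted line of equal values; purple marks the 6 genes that differed between the strains, black those that passed against A/J only and grey the rest. Hsp90aa1 lies highest in both, Pfdn5 and Fkbp1a lie lowest in AcB61, and Dnajb4 is far below the line. Both axes share the A/J signal of the arrays.

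Chaperone genes outside the rule were read from 4 further lists. Of 14 measured cochaperones of HSP90 and HSP70, 2 rose and 2 fell in AcB61, and 1 rose and 1 fell in AcB55, with medians of 0.03 and -0.01. Tomm34, which joins HSP70 and HSP90 at mitochondrial import, fell in both, with means of -0.30 ± 0.189 in AcB61 (adjusted p = 0.00171) and -0.48 ± 0.15 in AcB55 (n = 5, adjusted p = 0.000217). Of 10 other cytosolic folding helpers, 5 rose in AcB61 and 2 rose and 1 fell in AcB55. They include Hikeshi, which carries HSP70 into the nucleus, at 0.35 ± 0.223 in AcB61 (adjusted p = 0.00138) and 0.0 ± 0.187 in AcB55 (adjusted p = 0.993), and Vbp1, a prefoldin subunit named otherwise, at 0.20 ± 0.191 in AcB61 (adjusted p = 0.019) and 0.19 ± 0.144 in AcB55 (adjusted p = 0.0675).

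Of 9 mitochondrial chaperones and proteases outside the rule, Afg3l2 and Grpel2 rose in AcB61. In AcB55 none of the 9 passed in limma, and 1 had an unadjusted p under 0.05. Of 9 chaperones and disulphide isomerases of the endoplasmic reticulum outside the rule, 1 rose and 3 fell in AcB61, and 1 rose and 4 fell in AcB55. Pdia6, a disulphide isomerase, fell in both, at -0.19 ± 0.191 in AcB61 (adjusted p = 0.044) and -0.42 ± 0.19 in AcB55 (adjusted p = 0.000451).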

How the data were processed

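Spleen RNA was copied into Cy3- or Cy5-labelled cDNA, and the arrays were scanned and quantified with QuantArray and GeneSpring, per the labels. The deposited values are ratios of the channels on a log2 scale; the base was read as 2 from values centred near 0 (array medians -0.0205 to 0.00867), and normalization, dye swaps and spot intensity are not given in the sources used here. Gene symbols follow the annotation of the array platform in the repository. Probes with several symbols were left out (3 would have met the rule), and 97 spots were averaged per gene and array, with 20 genes on more than 1 spot and 61 genes valued on all arrays.

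The test was limma 3.58.1 in R 4.3.3 (lmFit and eBayes, a mean per strain, all 14 arrays, features with at least 3 values in each strain), tested on simulated data. P-values are two-sided. A/J was never hybridised with A/J, and the spread among A/J mice therefore does not enter the test. Genes described one by one are, per comparison, up to 8 largest passing changes in each direction, plus 25 fixed names, of which 20 were measured. Most other members given with values were passing genes or, like Fkbp4, fixed names. Dnajb2 was given by clone because its clones were called in opposite directions. Bag2, Bag3, Bag5, Cct8, Pfdn6, Hspa5, Hspa9, the clones of Ppig, Dnaja2 and Dnajc21 and the genes of the further lists were chosen after their values were seen. The members and all lists were chosen with earlier results of these data known. Of 26 alternatives, 24 were planned and 2 added after seeing the data. Promoters are from RefSeq, matched by symbol. Python 3.11.15, numpy 2.4.6, pandas 2.3.3 and matplotlib 3.10.9 were used for tables and figures.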

Additional observations from a re-analysis of the deposited data

Results flagged for a closer look

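Among 66 groups of arrays of 1 gene and strain, 1 held an array that stood far from the others: AcB55 replicate 6 measured 0.14 for Dnajb4, while the other 5 arrays of AcB55 lay between 0.43 and 0.60. Chance alone marks about 1 in 20 such groups. Without this array the difference between the strains was larger and still passed.

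A tested difference between the strains singled out 6 genes, each given as AcB61 minus AcB55. Cct5 differed by 0.33, Dnajb9 by 0.34, Fkbp9 by 0.31 and Ppie by 0.30, all higher in AcB61. Dnajb4 differed by -0.60 and Hspa8 by -0.28, both lower in AcB61.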

How the results depend on the processing

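The results per gene cover the 33 genes described one by one. Of these results, 2365 stayed on their side of the threshold, 96 lost the threshold and 73 gained it. The remaining 1 did not pass and moved by at least its SD over arrays. A result that did not pass could change sign and still count among the 2365. The 17 calls in AcB61 (14 higher, 3 lower) became 11 with 9 higher without AcB61 replicates 2, 6 and 8. Of all features 24.7% passed in that setting, against 23.8% over all arrays. There 6 of the 17 genes kept their call, and Ahsa1, Cct3, Cct8, Dnajb4 and Hspa9 gained one. Without AcB61 replicates 3, 5 and 7, 15 of the 17 genes kept their call, 7 others gained one and 5 calls were lower. The 7 were Bag5, Dnajb2, Dnajc10, Hspa14, Hspa4, Pfdn6 and Ppie. The 20 calls in AcB55 (10 higher, 10 lower) became 13 with 6 higher without AcB55 replicates 1 and 2. Of all features 15.9% passed there, against 20.7% over all arrays. The 6 differences between the strains (4 higher, 2 lower in AcB61) became 14 (8 and 6) with array weights, 11 (8 higher) with quantile normalization, 15 (9 and 6) without AcB61 replicates 3, 5 and 7, and 2 (1 and 1) without AcB55 replicates 3 and 4. The share of all features that passed between the strains moved as well, from 12.3% in the main setting. In the same order it was 21.6%, 15.35%, 21.3% and 5.43%. With every probe on its own, and without AcB55 replicates 1 and 2, 1 of the differences was lower in AcB61.

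Leaving out 1 array gave 15 to 17 calls in AcB61 (12 to 14 higher, 2 to 4 lower), 15 to 21 in AcB55 (7 to 12 higher, 7 to 11 lower) and 3 to 10 between the strains (1 to 6 higher, 1 to 4 lower). In the same order, 20.66% to 23.74%, 15.82% to 21.26% and 6.548% to 12.99% of all features passed. Under all alternatives in which they were tested, 4 of the 17 AcB61 calls passed (Cct7, Hsp90aa1, Pfdn5 and Tcp1), as did 12 of the 20 in AcB55 and Dnajb4 between the strains. Without AcB55 replicates 1 and 2 the AcB55 calls of Cct4, Dnajb6, Dnajc3, Dnajc7, Dnajc13, Hspd1 and Tcp1 were lost. With 1 fixed spot standing for each gene, the calls of Cct4, Dnajb6 and Hspbap1 in AcB61, of Cct4, Hspd1, St13 and Tcp1 in AcB55 and of Hspa8 between the strains were lost, and the AcB61 mean of St13 was 0.01 in place of -0.12. The strains fitted alone give no difference between them. No paired analysis was possible because the replicate numbers give only the order of deposit. The cause of these changes was not tested. Spot intensities were not used here, so dim spots could not be told from bright ones.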
